A study of Homo sapiens with 6 samples.

Results

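The genes described here are 32 long noncoding RNA genes that carry the names of small nucleolar RNA (snoRNA) host genes: those whose symbol is SNHG followed by a number, together with GAS5, ZFAS1, EPB41L4A-AS1 and CYTOR. They were chosen by symbol alone, through the Ensembl identifier and the gencode release 44 annotation of GRCh38, from the 60676 genes that both deposited tables list, and the rule uses no measured value. HT29 is a human colorectal adenocarcinoma line, here wild type, and its cells spent 48 h in control medium (untreated, Ctrl), in medium without histidine (histidine depletion, -H) or in medium without tryptophan (tryptophan depletion, -W). RNA-seq gave 2 libraries for each of these 3 groups, 6 libraries in all, with 46390819 to 64388876 reads on genes per library. The study used the tryptophan depletion as a comparison for amino acid stress in general, so the question for each gene is whether its level moved away from the untreated cells in either depletion and whether the depletions differed from each other.

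Some features of the groups limit what a difference can show. Medium without histidine had RPMI as its base and that without tryptophan DMEM F-12, both with dialyzed serum, and the base of the control medium of these libraries is not given in the sources used here (for a proteomics experiment with these depletions the methods name full RPMI), so an effect of the base medium and an effect of the missing amino acid cannot be told apart. Nothing in the labels says that the libraries of a group came from separate cultures, and the p-values then measure only the spread between these samples, which may be technical. Of 10 markers of colon epithelium, 9 were above 1 RPM (reads of a gene relative to the size of the library, the unit of the plot of member reads) in every library and CDX1 was below it, while the marker lists of mast cells, fibroblasts and endothelium each summed to at most 1.44 RPM in any library. Of 4 leukocyte markers, LYZ alone was above 1 RPM, and its list summed to 1278 and 1326 RPM in untreated, 214 and 247 in histidine-depleted and 698 and 700.3 in tryptophan-depleted libraries; its part in the results was not tested.

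A snoRNA host gene is transcribed and spliced like a messenger RNA, and the snoRNAs are cut out of its introns to guide chemical modification of ribosomal and spliceosomal RNA. Box C/D snoRNAs guide methylation of the ribose and box H/ACA snoRNAs guide pseudouridylation, while small Cajal body RNAs (scaRNAs) do the same for spliceosomal RNAs. What remains after splicing is a capped and polyadenylated RNA that often holds only short reading frames. Ribosomes that meet a stop codon early in such an RNA expose it to nonsense-mediated decay, so many of these RNAs are short-lived in growing cells and accumulate when translation is blocked. Many also begin with a cytosine and a run of pyrimidines, as the mRNAs of ribosomal proteins do (terminal oligopyrimidine RNAs), a start that couples their translation to nutrient signalling through mTOR. GAS5 was named for its rise in cells that stop growing. Neither translation nor RNA stability was measured in these libraries, so the sensitivity of the genes to translation is background and was not tested.

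The starts of 10 of the genes are given so that genes that rose, fell or did both can be set beside each other. Each sequence runs 5′ to 3′ on the strand of the gene from 10 bases before the annotated start to the 20th base from it, and capitals mark a run that begins with C and goes on with at least 4 bases that are each C or T, where such a run starts within 10 bases of the annotated start. The search used the strand of the gene only. The starts of GAS5 and SNHG29 are those of the canonical transcript in gencode release 44 on GRCh38, and the others are those of the RefSeq promoter table on GRCh38.p14.
GAS5, chr1:173867970-173867999, minus strand: accatactgtCTTTTCgaggtaggagtcga
SNHG29, chr17:16439027-16439056, plus strand: aaggtgtgaCCTTTTCattcccgttgttat
SNHG5, chr6:85678714-85678743, minus strand: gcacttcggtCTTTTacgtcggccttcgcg
ZFAS1, chr20:49278632-49278661, plus strand: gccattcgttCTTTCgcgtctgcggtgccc
SNHG32, chr6:31834906-31834935, plus strand: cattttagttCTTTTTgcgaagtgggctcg
SNHG19, chr16:2155339-2155368, minus strand: ccgcccctgtCTTTTCggggtcgagtccga
SNHG4, chr5:139274091-139274120, plus strand: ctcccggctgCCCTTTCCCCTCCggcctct
SNHG16, chr17:76557754-76557783, plus strand: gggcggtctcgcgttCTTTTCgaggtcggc
EPB41L4A-AS1, chr5:112160516-112160545, plus strand: tcatgaattctgtcgggtcccaaaatacgt
CYTOR, chr2:87455417-87455446, plus strand: atgagtcatctcgttccaatgagaatgaag

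In the RefSeq promoter table, 28 of the 32 genes have an entry, and 16 of these 28 (57.1%) hold the run, beside 33.5% of all 35116 promoters of the table. With the gencode starts, a search added after the start of GAS5 was seen to lie 1056 bases away in the RefSeq table, 12 of the 32 genes (37.5%) hold it, beside 29.1% of all 60357 matched genes. Among the 16739 long noncoding genes, 31.2% hold it at the gencode start. At 1 of the starts or both, 20 of the 32 genes hold it. The share of all genes with a run at either start was not computed. That count thus has no background and shows no enrichment. For each printed gene with a run, the annotation that places it nearest to the start was chosen after both were seen. GAS5 has no run at its RefSeq start, and SNHG5, SNHG32, SNHG19 and SNHG4 have none at their gencode starts, while ZFAS1, SNHG29 and SNHG16 hold it at both. The set holds genes that rose after both depletions (GAS5, SNHG29 and SNHG5) and genes that fell after both (SNHG19, SNHG4 and SNHG16). EPB41L4A-AS1 and CYTOR have no run at either start. A run is a match of letters and was not tested as a start used in these cells.

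RefSeq places 147 snoRNA or scaRNA genes inside the 32 genes. SNHG14, the long imprinted transcript of the Prader-Willi region, holds 83 of them, GAS5 holds 11 (SNORD44, SNORD47, SNORD74 to SNORD81 and SNORA103), SNHG1 holds 8, and 14 genes hold 1 each. CYTOR, SNHG27 and SNHG28 hold 0 and are counted among the host genes by the rule on symbols. The libraries were made from polyadenylated RNA, and mature snoRNAs carry no poly(A) tail. Of 144 snoRNA and scaRNA genes inside the 32 genes that the gencode annotation lists, 134 had 0 reads in every library and 4 reached 10 reads in any, with 97 reads at most (SNORA71B inside SNHG17). The 144 include 84 inside SNHG14, a host of low level, and 0 inside GAS5. Some of the 144, among them the 7 inside SNHG1, overlap annotated exons of their host, where reads may not have been assigned. A count of 0 there does not show that an RNA was absent. Reads on the host genes can come from spliced and unspliced RNA, since the annotated exons of some of them, SNHG1 and EPB41L4A-AS1 among them, together cover the whole gene, and mature snoRNAs were not measured.

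Together the 32 host genes took 0.128% and 0.127% of all reads in untreated cells. Their share was 0.159% and 0.156% without histidine, and 0.182% and 0.180% without tryptophan. The groups did not overlap, and both depletions were above untreated. GAS5 alone made up 17.3% and 17.5% of these reads in untreated cells, 25.0% and 24.5% after histidine depletion, and 30.3% in both tryptophan-depleted libraries. In RPM per kilobase of the canonical transcript, SNHG29 stood first of the 32 in each group, at 588 ± 14.8 (SD, n = 2) in untreated cells, 652 ± 18.0 after histidine depletion and 911 ± 28.9 after tryptophan depletion. GAS5 came next on this scale in each group, at 289 ± 0.410 in untreated, 507 ± 14.6 in histidine-depleted and 714 ± 3.19 in tryptophan-depleted cells. SNHG16 at 172 ± 0.873 and SNHG1 at 161 ± 3.002 followed in untreated cells, and the next gene, SNHG17, was at 35.5 ± 2.09. This order and its gaps depend on the length used, since reads were counted over all annotated exons. The canonical transcript of SNHG29 has 443 bases, while its annotated exons cover 8947. These lengths are 768 and 4932 for GAS5, 498 and 5776 for SNHG16, and 1162 and 3976 for SNHG1. A ranking by exonic bases was not made, so which RNA was most abundant is not shown.

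**Figure D1:**
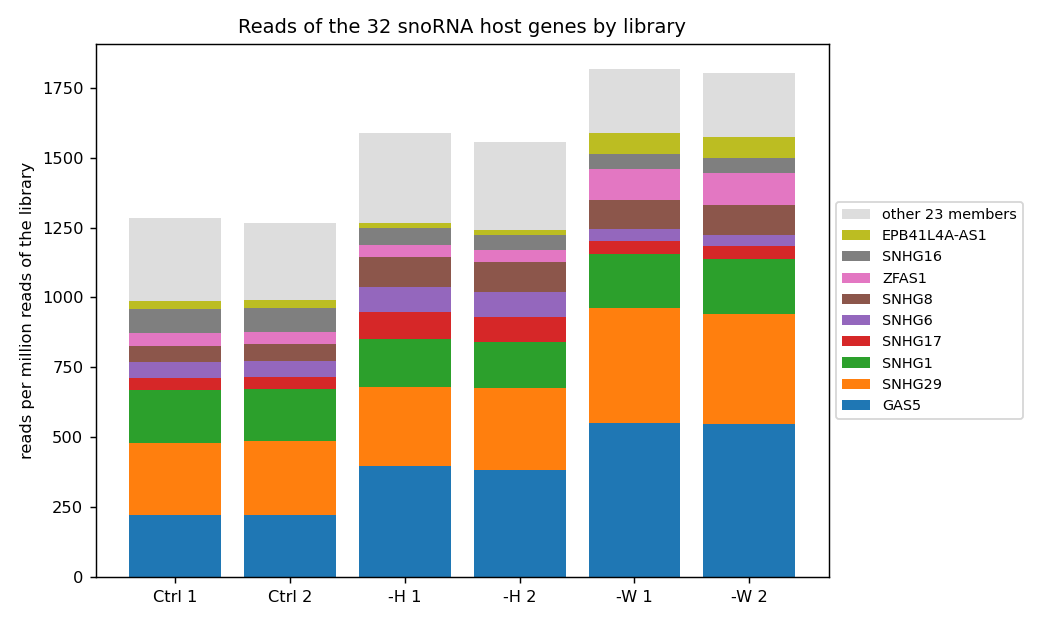
RPM of the snoRNA host genes in each of the 6 libraries, stacked by gene, with 9 genes shown separately and the other 23 summed in light gray. The bars of the depleted libraries are taller than those of the untreated libraries, and the GAS5 segment grows from 17.3% of the member reads in untreated library 1 to 30.3% in the tryptophan-depleted libraries.

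Of the 32 genes, 25 had a mean of at least 10 normalized counts over the untreated and histidine-depleted libraries and were tested there. After histidine depletion 11 of the 25 rose and 4 fell, against 39.1% of all 18288 tested genes that rose and 38.2% that fell (limma on log2 values, Benjamini-Hochberg adjusted p under 0.05). With total count scaling the counts were 10 and 9, where 5894 of all 18336 tested genes rose and 8431 fell, and the median of all genes was -0.18. The median log2 fold change of the 25 was 0.15, and that of all tested genes was 0.010. The former was 0.23 without untreated replicate 1, 0.22 without untreated replicate 2, 0.0692 with no filter and -0.0353 with total count scaling. At 2-fold or more, 5 rose and 1 fell, where 16.4% and 16.1% of all tested genes did. After tryptophan depletion 24 were tested, of which 10 rose and 12 fell, against 36.1% and 34.8% of all 17960 tested genes. Their median was -0.25 where that of all tested genes was 0.013, and it was -0.14 without tryptophan-depleted replicate 1 and -0.38 with no filter. At 2-fold or more 5 rose and 2 fell, with 10.0% and 10.4% among all tested genes. Filters on low values keep a gene through the group in which it is high, so these counts describe the tested genes and not the whole family. In bulk RNA, a change within each cell and a change in the mix of cells in the culture cannot be told apart.

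**Figure D2:**
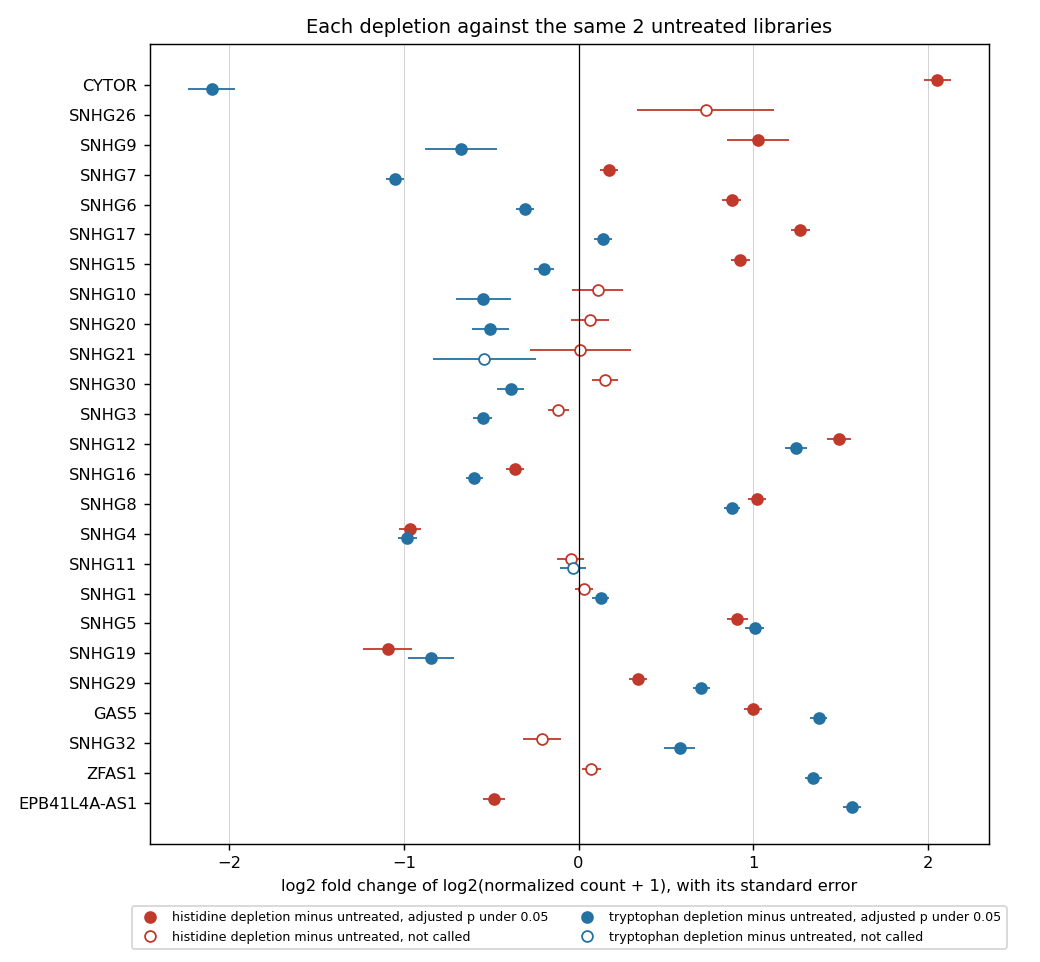
Log2 fold change against untreated cells for each host gene tested, with its standard error, for histidine depletion (red) and tryptophan depletion (blue). Filled points passed the adjusted p threshold; CYTOR lies at 2.05 and -2.10, EPB41L4A-AS1 at -0.48 and 1.56, and GAS5, SNHG12, SNHG5 and SNHG8 lie to the right of 0 in both. Both sets of points were computed against the same untreated libraries.

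In what follows, a level is the number of reads after the 6 libraries were scaled together, given for untreated, histidine-depleted and tryptophan-depleted libraries in that order. A fold change is the limma estimate on log2(normalized count + 1) within a deposited table, and its error is the standard error (SE). Both depletions were compared with the same untreated libraries, so their fold changes are set side by side and their likeness is not counted as a result.

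The hosts of both box C/D and box H/ACA snoRNAs, GAS5 and SNHG12, rose after both depletions. GAS5 (chr1:173858559-173868882), whose RNA is also known to bind the glucocorticoid receptor, was at 11268 and 11604 in untreated, 23110.5 and 22345 in histidine-depleted and 29859 and 29773 in tryptophan-depleted libraries. All depleted libraries lay above both untreated ones and the depletions did not overlap. Its log2 fold change was 1.00 (SE 0.0511, adjusted p = 6.34e-15) after histidine depletion and 1.38 (SE 0.0485, adjusted p = 1.03e-57) after tryptophan depletion. SNHG12 (chr1:28578538-28583132), which holds SNORD99 and 3 box H/ACA genes, was at 736 and 658, then 2006 and 1890.5, then 1657 and 1659. Its histidine-depleted libraries were the highest, with a log2 fold change of 1.49 (SE 0.0677, adjusted p = 6.39e-16), and the tryptophan-depleted ones followed at 1.24 (SE 0.0632, adjusted p = 1.22e-40). The interval of SNORD99 in this gene had 12 and 9 reads in untreated, 59 and 36 in histidine-depleted and 11 and 13 in tryptophan-depleted libraries, and whether these came from the snoRNA or from host RNA cannot be told apart. SNHG25, the remaining host of both kinds, had at most 7.47 in any library and was not tested.

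Among the 12 genes that RefSeq lists as hosts of box C/D snoRNAs only, 10 were tested after histidine depletion, where 3 rose and 2 fell, and 9 after tryptophan depletion, where 5 rose and 4 fell. The shares of all tested genes that rose and fell were 39.1% and 38.2% in the former comparison and 36.1% and 34.8% in the latter. SNHG5 (chr6:85650491-85678932), the host of SNORD50A and SNORD50B, was at 1131 and 1139.8 in untreated, 2120.5 and 2122.5 in histidine-depleted and 2310.3 and 2285.5 in tryptophan-depleted libraries. It rose with both, by 0.91 (SE 0.0581, adjusted p = 4.86e-13) and 1.01 (SE 0.0558, adjusted p = 4.56e-37) on the log2 scale. SNHG29 (chr17:16438767-16480249), the host of SNORD49A, SNORD49B and SNORD65, was at 12966 and 13866, then 16476 and 17252, then 22399 and 21489. Its rise was smaller after histidine depletion, at 0.34 (SE 0.0526, adjusted p = 2.92e-06), than after tryptophan depletion, at 0.70 (SE 0.0485, adjusted p = 1.61e-28), and the groups did not overlap. With quantile normalization the rise of SNHG29 after histidine depletion was 0.0796 (adjusted p = 0.0366).

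ZFAS1 (chr20:49278178-49299600), the host of the SNORD12 family, rose after tryptophan depletion and was not called after histidine depletion. Its level was 2419 and 2375 in untreated, 2501 and 2511 in histidine-depleted and 6054 and 6184 in tryptophan-depleted libraries. The log2 fold changes were 1.34 (SE 0.0482, adjusted p = 6.21e-57) after tryptophan depletion and 0.07 (SE 0.0532, adjusted p = 0.212) after histidine depletion. With total count scaling ZFAS1 was called lower after histidine depletion (-0.12, adjusted p = 0.0269). Whether strand was used in counting is not given in the sources used here, which bears on each host gene with exons on the other strand. ZNFX1, an RNA helicase gene whose start lies 585 bases away on the other strand, was at 6116.5 and 6205.5, then 14526 and 14707, then 11295 and 11460.0. ZNFX1 thus rose after both depletions, by 1.26 (SE 0.0488, adjusted p = 3.17e-17) after histidine and 0.88 (SE 0.0464, adjusted p = 6.89e-39) after tryptophan depletion, while ZFAS1 did so after tryptophan depletion. SNHG32 (chr6:31834608-31839766), the host of SNORD48 and SNORD52, was at 315 and 395, then 308 and 298, then 516 and 545. It rose after tryptophan depletion by 0.58 (SE 0.0895, adjusted p = 4.09e-09), and after histidine depletion it was at -0.21 (adjusted p = 0.0845) and would be called lower, at -0.37 (adjusted p = 0.0068), without untreated replicate 1 or, at -0.40 (adjusted p = 0.00557), with total count scaling. The value of SNHG32 there ranged up to -0.003 (adjusted p = 0.982), with quantile normalization. ENSG00000285565, SNORD48 and SNORD52 together share 29.09% of the exonic bases of SNHG32 on the same strand.

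SNHG1 (chr11:62851978-62855953), the host of the SNORD22 and SNORD25 to SNORD31 genes, moved least with the main scaling among box C/D hosts at high level. After histidine depletion it was called lower with quantile normalization (-0.22, adjusted p = 0.000261) and total count scaling (-0.16, adjusted p = 0.0014). It was at 9621 and 9669.7 in untreated, 9975 and 9612 in histidine-depleted and 10449 and 10719.7 in tryptophan-depleted libraries, so the histidine-depleted libraries spanned the untreated ones and the tryptophan-depleted ones lay above. The log2 fold changes were 0.03 (adjusted p = 0.58) and 0.13 (SE 0.0466, adjusted p = 0.0118), and the rise after tryptophan depletion was not called without tryptophan-depleted replicate 1 (0.15, adjusted p = 0.115) or replicate 2 (0.10, adjusted p = 0.304). SNHG6, the host of SNORD87, was at 2774 and 3017, then 5264 and 5299, then 2463 and 2242. It rose after histidine depletion by 0.88 (SE 0.0535, adjusted p = 1.96e-13) and fell after tryptophan depletion, with a log2 fold change of -0.31 (SE 0.0517, adjusted p = 5.47e-08). Exons of MCMDC2 lie opposite 58.9% of the exonic bases of SNHG6, and MCMDC2 itself had a level of at most 108 in any library.

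SNHG16 and SNHG19 fell after both depletions. SNHG16 (chr17:76557727-76670985), which holds SNORD1A, SNORD1B and SNORD1C, was at 4350.2 and 4457 in untreated, 3503 and 3297 in histidine-depleted and 2957 and 2898 in tryptophan-depleted libraries. Its log2 fold changes were -0.36 (SE 0.0524, adjusted p = 9.32e-07) and -0.60 (SE 0.0485, adjusted p = 4.09e-23), and the 3 groups did not overlap. Exons of ENSG00000284526 lie opposite 28.53% of the exonic bases of SNHG16. SNHG19 (chr16:2154792-2155405), the host of SNORD60, was at 225 and 253, then 123 and 99.7, then 122 and 146. Its libraries of either depletion lay below untreated, at -1.09 (SE 0.14, adjusted p = 1.62e-07) and -0.84 (SE 0.13, adjusted p = 4.12e-09), and the depletions overlapped each other. TRAF7, whose start lies 377 bases from that of SNHG19 on the other strand, was at -0.03 (adjusted p = 0.602) and 0.07 (adjusted p = 0.192). SNHG30 (chr17:35568050-35574900), the host of SNORD7, was at 678 and 641, then 713 and 745, then 539 and 474. It fell after tryptophan depletion, with a log2 fold change of -0.39 (SE 0.0784, adjusted p = 4.66e-06), and was at 0.15 (adjusted p = 0.0635) after histidine depletion, where it would be called higher, at 0.19 (adjusted p = 0.0439), without untreated replicate 1 and, at 0.35 (adjusted p = 0.000756), with quantile normalization, while total count scaling put it at -0.0353.

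Of the 10 hosts of box H/ACA snoRNAs only, 9 were tested: 5 rose and 2 fell after histidine depletion, and 3 rose and 5 fell after tryptophan depletion. Among all tested genes, 39.1% and 38.2% did so in the former and 36.1% and 34.8% in the latter. SNHG8 (chr4:118278703-118285316), the host of SNORA24, was at 2969.7 and 3188 in untreated, 6238 and 6171 in histidine-depleted and 5573 and 5807 in tryptophan-depleted libraries. It rose after both, by 1.02 (SE 0.0522, adjusted p = 6.52e-15) and 0.88 (SE 0.0483, adjusted p = 2.41e-37). PRSS12 exons lie opposite 37.6% of its exonic bases, and PRSS12 moved otherwise, at 462 and 484, then 70.5 and 63.1, then 548 and 522. SNHG17 (chr20:38419638-38435409), which holds 4 genes of the SNORA71 family, was at 2323 and 2205, then 5611 and 5246, then 2478 and 2530.0. It rose after histidine depletion by 1.27 (SE 0.0539, adjusted p = 1.73e-16) and by 0.14 (SE 0.0516, adjusted p = 0.0129) after tryptophan depletion, and the latter call was lost without tryptophan-depleted replicate 1 (0.16, adjusted p = 0.0735) or replicate 2 (0.12, adjusted p = 0.201).

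SNHG15, SNHG9 and SNHG7 rose after histidine depletion and fell after tryptophan depletion. SNHG15 (chr7:44983019-44986961), the host of SNORA9, was at 1731 and 1688 in untreated, 3302 and 3160.3 in histidine-depleted and 1405 and 1603 in tryptophan-depleted libraries. Its rise was 0.93 (SE 0.0546, adjusted p = 1.03e-13), and its fall of -0.19 (SE 0.0572, adjusted p = 0.00151) was not called without tryptophan-depleted replicate 1 (-0.09, adjusted p = 0.331). SNHG9 (chr16:1964895-1965509), the host of SNORA78, is a short gene of low level whose start lies 69 bases from that of RPS2, a ribosomal protein gene on the other strand. It was at 73.2 and 91.5, then 138 and 201.5, then 51.2 and 51.3, with log2 fold changes of 1.03 (SE 0.176, adjusted p = 1.20e-05) and -0.67 (SE 0.206, adjusted p = 0.00233). The fall of SNHG9 was not called without untreated replicate 2 (-0.51, adjusted p = 0.0552). RPS2 fell after both depletions, at -0.40 (SE 0.0732, adjusted p = 2.57e-05) and -0.39 (SE 0.069, adjusted p = 1.92e-07).

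SNHG7 (chr9:136721366-136728184), the host of SNORA17A and SNORA17B, was at 3165 and 3380 in untreated, 3573 and 3766 in histidine-depleted and 1615 and 1556 in tryptophan-depleted libraries. Its fall after tryptophan depletion was -1.05 (SE 0.0522, adjusted p = 1.09e-41). The rise of SNHG7 after histidine depletion was 0.17 (SE 0.0538, adjusted p = 0.00525), was not called without histidine-depleted replicate 2 (0.14, adjusted p = 0.121) and was at -0.02 when libraries were scaled by their total. Exons of DIPK1B lie opposite 30.3% of the exonic bases of SNHG7, and DIPK1B had a level of at most 95.1. SNHG4 (chr5:139274102-139284899), the host of SNORA74A and SNORA74D, fell after both depletions. It was at 2289 and 2121, then 1177 and 1065, then 1128 and 1117, with log2 fold changes of -0.97 (SE 0.0638, adjusted p = 9.40e-13) and -0.98 (SE 0.0565, adjusted p = 2.53e-35). Of its exonic bases, 14.01% are shared with MATR3 on the same strand.

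EPB41L4A-AS1 (chr5:112160526-112164818), the host of SNORA13, went down after histidine depletion and up after tryptophan depletion. It was at 1358 and 1379.5 in untreated, 999 and 948 in histidine-depleted and 4079.5 and 4065 in tryptophan-depleted libraries, with no overlap between groups. The log2 fold changes were -0.48 (SE 0.0638, adjusted p = 2.66e-07) and 1.56 (SE 0.0515, adjusted p = 3.19e-61). EPB41L4A, whose exons lie opposite 51.2% of its exonic bases, had a level of 23.8 to 45.9 over the 6 libraries. SNHG3 (chr1:28505980-28510892), the host of SNORA73A and SNORA73B, snoRNAs that act in the processing of ribosomal RNA, was at 3105 and 2740.2, then 2749 and 2601, then 1922 and 2088. It fell after tryptophan depletion at -0.55 (SE 0.053, adjusted p = 2.78e-18), and at -0.12 (adjusted p = 0.0782) after histidine depletion it was not called, though it would be without untreated replicate 2 (-0.20, adjusted p = 0.00293), with total count scaling (-0.31, adjusted p = 0.00133) or with quantile normalization (-0.19, adjusted p = 0.0314). Without untreated replicate 1 the value of SNHG3 there was -0.029 (adjusted p = 0.638). RCC1 and SNORA73A together share 10.96% of the exonic bases of SNHG3 on the same strand, and RCC1 moved by 0.88 (adjusted p = 9.08e-14) and -0.73 (adjusted p = 1.51e-31). SNHG11 (chr20:38446343-38450940), the host of SNORA71E and SNORA60, was at 619.7 and 629, then 594.5 and 607, then 607 and 619.9, and neither -0.05 (adjusted p = 0.596) nor -0.03 (adjusted p = 0.714) was called. After histidine depletion SNHG11 was called higher with quantile normalization (0.17, adjusted p = 0.036) and lower with total count scaling (-0.23, adjusted p = 0.00682).

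None of the 3 tested hosts of scaRNAs was called after histidine depletion by limma, which holds for edgeR, DESeq2 and an unadjusted limma p under 0.05 too, and 2 of them fell after tryptophan depletion. Of all tested genes, 39.1% rose and 38.2% fell in the former comparison, and 36.1% and 34.8% did in the latter. SNHG10 (chr14:95521943-95534889), the host of SCARNA13, was at 151 and 126 in untreated, 140.0 and 157 in histidine-depleted and 97.1 and 92.5 in tryptophan-depleted libraries. It was at 0.11 (adjusted p = 0.495) and fell at -0.55 (SE 0.159, adjusted p = 0.00137). GLRX5, whose start lies 408 bases away on the other strand, was at 0.06 (adjusted p = 0.376) and 0.03 (adjusted p = 0.62). SNHG20 (chr17:77086716-77099902), the host of SCARNA16, was at 378 and 295, then 329.8 and 366, then 225 and 248. Its histidine-depleted libraries lay between the untreated ones (0.07, adjusted p = 0.6) and its tryptophan-depleted ones below them (-0.51, SE 0.107, adjusted p = 1.30e-05), a call that was lost in limma without the trend (adjusted p = 0.0572). Without untreated replicate 1 the value of SNHG20 was -0.33. SNHG21, the host of SCARNA15, had a level of 19.2 to 48.8 and was called in neither.

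CYTOR (chr2:87454781-87636740), named for its role in the cytoskeleton, is without a RefSeq snoRNA gene and belongs to the set by its symbol. Among the tested genes of the set, it rose most after histidine depletion and fell most after tryptophan depletion. It was at 328 and 331 in untreated, 1420.3 and 1309.5 in histidine-depleted and 76.8 and 76.0 in tryptophan-depleted libraries. The log2 fold changes were 2.05 (SE 0.0763, adjusted p = 1.32e-17) and -2.10 (SE 0.136, adjusted p = 5.83e-31), and the groups stood far apart. Reads of CYTOR are uncertain, since 61.9% of the 31-base words of its transcripts also occur in those of MIR4435-2HG, a near-copy on the same chromosome, and how reads that map to several places were counted is not given in the sources used here. MIR4435-2HG was at 504 and 512, then 1231 and 1187, then 160.1 and 186, with log2 fold changes of 1.26 (SE 0.0709, adjusted p = 4.35e-14) and -1.56 (SE 0.103, adjusted p = 5.02e-30), the same directions as CYTOR.

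The genes that were not tested had levels of 0 to 14.9 in the 6 libraries. SNHG18 and SNHG28 had 0 reads in every library, which for SNHG18 allows up to 3 reads per library. Of the exonic bases of SNHG28, 90.82% are shared with other genes on the same strand, and reads there may not have been assigned to it, so no limit is given. SNHG14 was at 12.02 and 9.95 in untreated, 5.42 and 6.10 in histidine-depleted and 1.07 and 3.66 in tryptophan-depleted libraries, a level at which no fold change is given. SNHG22, SNHG25, SNHG27 and SNHG31 were likewise under the minimum. SNHG26, the host of SNORD93, passed it in some of the comparisons and was at 14.2 and 7.96, then 17.2 and 19.3, then 5.34 and 0.916. After histidine depletion SNHG26 was not called (0.73, adjusted p = 0.0957), and it ranged from 0.35 (adjusted p = 0.432) without untreated replicate 2 to 1.11 (adjusted p = 0.027) without untreated replicate 1, where the untreated library that remained was under the minimum.

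Whether the depletions differed from each other was tested on the reads of all 6 libraries scaled together, with 25 of the 32 genes tested. Of these, 14 were higher after histidine than after tryptophan depletion and 7 were lower, against 38.7% and 38.0% of all 18264 tested genes. The median difference was 0.23 on the log2 scale, where that of all tested genes was 0.011. With total count scaling it was 0.13, where that of all tested genes was -0.093, and with no filter it was 0.17. At 2-fold or more, 7 were higher and 2 lower, with 16.0% and 15.8% among all tested genes.

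CYTOR differed most, by 4.14 (SE 0.09, adjusted p = 1.00e-16). SNHG26 passed the minimum only while both histidine-depleted libraries were kept, with 5 reads and 1 read in the tryptophan-depleted ones. It thus counts by the filter among the 14 that were higher and the 7 that were higher at 2-fold or more. Its value of 2.46 is a description only. SNHG9 differed by 1.68 (SE 0.193, adjusted p = 3.95e-07), SNHG7 by 1.21 (SE 0.0483, adjusted p = 2.18e-13) and SNHG6 by 1.17 (SE 0.0517, adjusted p = 8.86e-13). SNHG17 at 1.12 (SE 0.0467, adjusted p = 4.13e-13) and SNHG15 at 1.11 (SE 0.0574, adjusted p = 8.06e-12) complete the genes that were at least 2-fold higher after histidine depletion. Their libraries did not overlap between the depletions. In the other direction, EPB41L4A-AS1 differed by -2.06 (SE 0.0487, adjusted p = 2.63e-16) and ZFAS1 by -1.29 (SE 0.0414, adjusted p = 1.21e-14), and SNHG32 followed at -0.81 (SE 0.101, adjusted p = 1.14e-06).

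SNHG17 was also called higher against untreated cells in both depletions, and the other genes called in the same direction in both differed by less between the depletions or were not called. GAS5 was lower after histidine than after tryptophan depletion (-0.39, SE 0.0387, adjusted p = 5.42e-08), and SNHG29 likewise (-0.38, SE 0.0434, adjusted p = 3.66e-07). SNHG12 at 0.23 (SE 0.0599, adjusted p = 0.00207) and SNHG16 at 0.22 (SE 0.0439, adjusted p = 0.000264) were higher after histidine depletion, though SNHG12 was not called with total count scaling (0.13, adjusted p = 0.0811). SNHG8 at 0.13 (SE 0.0439, adjusted p = 0.0161) lost its call without histidine-depleted replicate 1 (0.12, adjusted p = 0.0708) or tryptophan-depleted replicate 1 (0.10, adjusted p = 0.173), and was at 0.0186 (adjusted p = 0.628) with quantile normalization and 0.0233 (adjusted p = 0.55) with total count scaling. SNHG5 at -0.12 (SE 0.0468, adjusted p = 0.0338) lost it without any 1 of the 4 depleted libraries, with adjusted p from 0.0991 to 0.156. SNHG4 at -0.00 (SE 0.0591, adjusted p = 0.962) and SNHG19 at -0.26 (SE 0.145, adjusted p = 0.109) were not called, although SNHG19 ranged from -0.41 (adjusted p = 0.0298) without histidine-depleted replicate 1 to -0.11 (adjusted p = 0.543) without histidine-depleted replicate 2, and was called at -0.36 (adjusted p = 0.0373) with total count scaling. These values do not show that the depletions acted alike on SNHG4 or SNHG19.

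**Figure D3:**
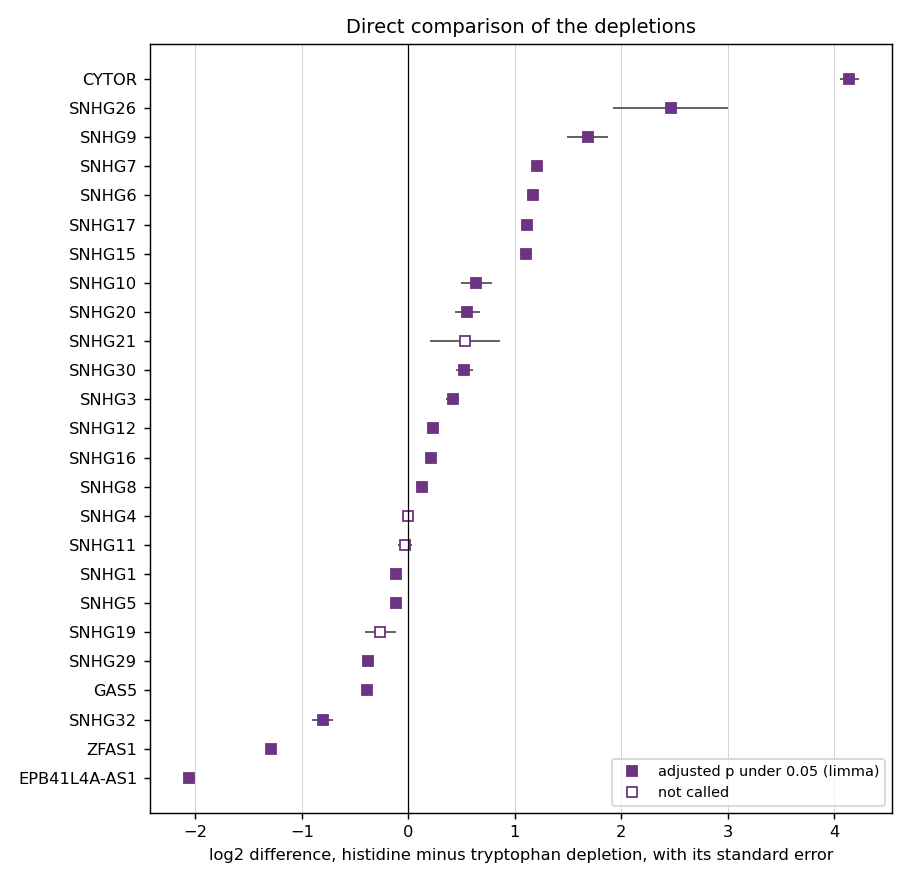
Difference between the depletions for each of the 25 host genes tested, as log2 of histidine-depleted minus log2 of tryptophan-depleted level with its standard error, in order of size; filled squares passed the adjusted p threshold. CYTOR at 4.14 and EPB41L4A-AS1 at -2.06 mark the ends, and SNHG4, SNHG11, SNHG19 and SNHG21 were not called.

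Other genes of the same pathway were set beside the host genes as lists, given by their counts and medians. These counts stand against 39.1% of all tested genes that rose and 38.2% that fell without histidine, and 36.1% and 34.8% without tryptophan, with medians of all tested genes of 0.010 and 0.013. Of 38 other snoRNA host genes, which encode proteins in most cases, 14 rose and 12 fell after histidine depletion (median 0.07), and 13 rose and 17 fell after tryptophan depletion (median -0.04). Named for the size of their change, the ribosomal protein genes RPL3, RPL12 and RPL37 fell after histidine depletion at -1.90, -1.78 and -1.68. DANCR, a noncoding host outside the SNHG names, fell after tryptophan depletion at -1.02 (adjusted p = 1.11e-38). The pyrimidine run was present at 20 of the 29 RefSeq starts of this list (69.0%).

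Of the 8 core proteins of snoRNA particles, 6 rose and 2 fell after histidine depletion (median 0.43), and 0 rose and 5 fell after tryptophan depletion (median -0.26). FBL, the methyltransferase fibrillarin of box C/D particles, fell after both, at -1.38 (adjusted p = 1.96e-17) and -1.05 (adjusted p = 7.20e-45), and DKC1, the pseudouridine synthase dyskerin of box H/ACA particles, rose after histidine depletion by 0.97 (adjusted p = 1.66e-14). Of 16 factors of nonsense-mediated decay, 13 rose and 2 fell after histidine depletion (median 0.51), and 2 rose and 7 fell after tryptophan depletion (median -0.07). CASC3 and EIF4A3, parts of the exon junction complex, rose by 1.21 and 1.17 after histidine depletion, and MAGOH of the same complex fell there at -0.47 and at -0.63 after tryptophan depletion. Of 10 stress mRNAs known as targets of that decay, 9 rose and 1 fell after histidine depletion (median 1.34), and 8 rose and 1 fell after tryptophan depletion (median 0.83). This list, like the others, was chosen with earlier results of these data known, so its counts are a description. Decay was not measured, and the cause of these changes was not tested. GADD45B rose by 4.93 (adjusted p = 1.09e-24) after histidine depletion and DDIT3 by 1.99 (adjusted p = 8.07e-74) after tryptophan depletion. The host genes described here had medians of 0.15 and -0.25 on the same scale, with a spread from -1.09 to 2.05 and from -2.10 to 1.56.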

How the data were processed

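RNA was sequenced as stranded polyadenylated libraries with molecular identifiers in the adapters. Per the labels and methods, the authors used STAR 2.7.10a for alignment to GRCh38 and HTSeq 2.0.5 for counting over the exons of an earlier gencode release (protein-coding genes by the methods, although the tables list long noncoding genes too), and deposited, for each depletion, a table of the same untreated libraries and the depleted ones, in which each value is a signal, the read count divided by a DESeq2 size factor. The use of molecular identifiers, strand and multiply mapped reads is not given in the sources used here. 100% of the values were whole multiples of the step of their library (tolerance 0.01), which gave back the reads, and the untreated reads were identical in both tables. Of 60676 identifiers, 60357 were found in gencode release 44.

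The main test was limma 3.58.1 in R 4.3.3 (trend on, two-sided) on log2(normalized count + 1), within a table, with 10 as the lowest mean of a tested gene, adjusted by Benjamini-Hochberg over all tested genes at 0.05. The depletions were compared after joint median-of-ratios scaling of the recovered reads. On those reads edgeR 4.0.16 and DESeq2 1.42.0 were alternatives, and edgeR called 7169 genes higher and 7111 lower without histidine, and 6490 and 6349 without tryptophan. Also tried were a pseudocount of 0.5 or 8, leaving out the filter or raising it to a mean of 50, no trend, quantile and total count scaling, other fits, a limit on the fold change and each library left out. The code was tested on simulated data. Tables were made with pandas 2.3.3 and numpy 2.4.6 in Python 3.11.15, and plots with matplotlib 3.10.9.

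Host genes were given with values in each library where the higher group had a mean of at least 100, and SNHG14 and SNHG26 were added after their values were seen. Genes of the other lists were named from the 3 with the largest change past the threshold in a comparison. MAGOH was so named after tryptophan depletion, and its value after histidine depletion was added. Overlapping exons, and starts within 1000 bases on the other strand, came from the annotation. The members and the lists were chosen with earlier results of these data known. Intervals and floors cover counting error only.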

Additional observations from a re-analysis of the deposited data

Results flagged for a closer look

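The response to histidine depletion and that to tryptophan depletion, measured against the same untreated libraries, differed for 21 host genes in the direct limma test, beside 38.7% of all tested genes that were higher and 38.0% that were lower in it, and no explanation was tested. SNHG26 is among them only while both histidine-depleted libraries, where it is high, are kept in the filter, so its value is a description. Log2 differences, histidine minus tryptophan depletion, were 4.14 for CYTOR, 2.46 for SNHG26, 1.68 for SNHG9, 1.21 for SNHG7, 1.17 for SNHG6, 1.12 for SNHG17, 1.11 for SNHG15, 0.64 for SNHG10, 0.55 for SNHG20, 0.53 for SNHG30, 0.42 for SNHG3, 0.23 for SNHG12, 0.22 for SNHG16 and 0.13 for SNHG8. In the opposite direction they were -2.06 for EPB41L4A-AS1, -1.29 for ZFAS1, -0.81 for SNHG32, -0.39 for GAS5, -0.38 for SNHG29, -0.12 for SNHG5 and -0.11 for SNHG1. SNHG1 lost its call without histidine-depleted replicate 2 (-0.09, adjusted p = 0.148) or tryptophan-depleted replicate 2 (-0.09, adjusted p = 0.149).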

How the results depend on the processing

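Scaling by the total count moved the median of all genes after histidine depletion from 0.01 to -0.18, and 9 host genes were then lower in place of 4. Of all 18336 genes tested under that scaling, 5894 were higher and 8431 lower. A limit of 1 on the absolute log2 fold change left 5 higher and 1 lower after histidine depletion, 5 and 2 after tryptophan depletion, and 7 and 2 between the depletions. With each library left out in turn, the host genes that rose and fell numbered 10 to 13 and 4 to 5 after histidine depletion, 8 to 10 and 11 to 13 after tryptophan depletion, and 13 to 14 and 5 to 7 between the depletions. Under the other alternatives the counts of host genes stayed within 1.5 times those reported.

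Signs turned for genes near 0, and the cause was not tested. Of these, SNHG1 (adjusted p = 0.000261) and SNHG11 (adjusted p = 0.036) with quantile normalization, and SNHG1 (adjusted p = 0.0014) and ZFAS1 (adjusted p = 0.0269) with total count scaling, were called in the new direction, and SNHG11 was called lower with the latter (-0.23, adjusted p = 0.00682). After histidine depletion these were, with quantile normalization, SNHG1 (-0.22), SNHG11 (0.17) and SNHG21 (-0.0597), and with total count scaling SNHG1 (-0.16), SNHG10 (-0.0782), SNHG20 (-0.12), SNHG21 (-0.17), SNHG30 (-0.0353), SNHG7 (-0.0151) and ZFAS1 (-0.12). With a library left out, SNHG10 ranged from -0.0142 (untreated replicate 2) to 0.2344 (untreated replicate 1), SNHG20 from -0.11 (untreated replicate 2) to 0.24 (untreated replicate 1) and SNHG21 from -0.40 (histidine-depleted replicate 2) to 0.4212 (histidine-depleted replicate 1). After tryptophan depletion quantile normalization put SNHG11 at 0.0915. Between the depletions it put SNHG11 at 0.0655 and SNHG4 at 0.0372, and SNHG4 was at 0.0043 with DESeq2 and ranged from -0.0754 (histidine-depleted replicate 1 left out) to 0.0686 (replicate 2 left out). SNHG21 was called after tryptophan depletion when untreated replicate 1 (-0.83, adjusted p = 0.0209) or tryptophan-depleted replicate 2 (-0.90, adjusted p = 0.026) was left out, and was at -0.18 (adjusted p = 0.666) when tryptophan-depleted replicate 1 was. Between the depletions it ranged from 0.12 (adjusted p = 0.783, histidine-depleted replicate 2 left out) to 0.95 (adjusted p = 0.0215, histidine-depleted replicate 1 left out).

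Other calls were lost after tryptophan depletion in limma without the trend (SNHG1, adjusted p = 0.107, SNHG15, 0.144, SNHG17, 0.114), with DESeq2 (SNHG9, 0.0524, SNHG17, 0.0738) and with total count scaling (SNHG1, 0.106, SNHG17, 0.195) and quantile normalization (SNHG1, 0.0622). SNHG7 after histidine depletion was not called with quantile normalization (adjusted p = 0.124) or without the trend (0.0944). Between the depletions SNHG5 was not called with no filter (0.0522), without the trend (0.0519) or with DESeq2 (0.104), nor were SNHG1 (0.0786) and SNHG8 (0.105) without the trend. Scaling by the total count moved SNHG16 to -0.55 after histidine depletion and to 0.11 between the depletions, and quantile normalization moved SNHG1 to -0.28 there.

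Same-numbered libraries shared only a number, with correlations of their deviations of 0.117 (untreated and histidine-depleted), -0.0527 (untreated and tryptophan-depleted) and -0.104 (histidine-depleted and tryptophan-depleted). With a replicate block, 12 host genes rose and 6 fell after histidine depletion, 10 and 12 after tryptophan depletion, and 14 and 7 differed between the depletions; the block added SNHG3 (adjusted p = 0.0276), SNHG30 (0.0422) and SNHG32 (0.0396) after histidine depletion. Leaving a group with 1 library assumes that it varies like the others. Low counts limit the 7 genes that were not tested and SNHG26, and their cause was not tested.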
